A study of Homo sapiens with 2 samples.

Results

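Collagen chains are the genes described here: all 44 genes of the deposited matrix named COL, a number, A and a number, out of 38606 genes in all. Both libraries were made from commercially supplied human mesenchymal stem cells of adipose tissue, multipotent stromal cells that grow attached to plastic. The cells of both were grown close to confluence and starved overnight. The TGFB1 library came from cells then given 10 ng/mL of TGFB1, a cytokine that drives matrix production, for 24 hours, and the untreated library from cells that received no TGFB1. The labels give no donor and no passage. With 1 library per group, no difference between the groups was tested and no p-value is given, and the 95% intervals below cover counting error only.

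Collagens are secreted or membrane-bound proteins in which alpha chains wind into a triple helix, with the same chain or different chains in 1 trimer. Fibrillar collagens build the rope-like fibrils of connective tissue, and basement membrane collagen IV forms sheet-like networks under cells. FACIT collagens decorate fibril surfaces, collagen VI assembles into beaded filaments around cells, and collagen VII makes the anchoring fibrils that tie a basement membrane to the matrix beneath it. TGFB1 signals through SMAD transcription factors and is known for raising matrix production in fibroblast-like cells.

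The TGFB1 library held 12555 cells and 208991941 unique molecular identifiers (UMIs, each a captured RNA molecule), and the untreated library held 8101 cells and 169011524 UMIs. Median depth was 15134 UMIs per cell in the TGFB1 library and 19249 in the untreated library. The stromal markers NT5E, THY1, ENG, PDGFRA, PDGFRB and VIM were all present in both libraries. NT5E, PDGFRA and VIM were at least 1.5-fold lower with TGFB1 (list median log2 ratio -0.53), and the 3 measured chondrocyte markers MATN3, HAPLN1 and SOX9 were at least 1.5-fold higher (median 0.99). ACAN and CNMD, also on the chondrocyte list, were lower with TGFB1. ACAN had 125 UMIs with TGFB1 and 213 untreated, and CNMD had 5 with TGFB1 and 17 untreated. The part of these shifts in the collagen ratios was not tested. Levels are given in CPM, a gene's UMIs per 1000000 UMIs of its library. The endothelial list summed to 0.675 CPM in the TGFB1 library and 0.775 CPM in the untreated library, with 1 of its 7 genes at 0 in each. The leukocyte list summed to 2.15 CPM with TGFB1 and 3.36 CPM untreated, with 2 of its 7 genes at 0 in each. Of that list, CD74 had 299 UMIs with TGFB1 and 388 untreated, and CD3E had no UMI in either library. KRT19, a keratin listed among the epithelial markers, stood at 191 CPM in the TGFB1 library and 675 CPM in the untreated library. KRT18, the other measured gene of that list, stood at 80.2 CPM with TGFB1 and 35.1 CPM untreated, and EPCAM had 10 UMIs with TGFB1 and 6 untreated. The libraries shared 18 cell barcodes. The authors' 11 clusters are called here by their numbers. They were made from these genes too, so a cluster's level is a description, and those with at least 50 cells of a library were described, 9 in the TGFB1 library and 5 in the untreated library.

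Collagen UMIs made up 2.50% of all UMIs in the TGFB1 library and 1.99% in the untreated library, a 1.26-fold difference. Cell by cell, the collagen share had a median of 2.52% in the TGFB1 library, with 5th and 95th percentiles of 1.33% and 3.85%. In the untreated library the median was 1.84%, with percentiles of 0.700% and 3.62%. The spreads over cells therefore overlapped widely. The 3 genes COL1A1, COL1A2 and COL3A1 gave 82.9% of the collagen UMIs in the TGFB1 library and 82.1% in the untreated library. UMIs are not divided by transcript length, so levels are compared here between libraries and not between genes.

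Of the 44 chains, 43 had at least 1 UMI, and 22 reached 5 CPM in either library. Among those 22, 6 were at least 1.5-fold higher in the TGFB1 library, which is 27.3%, against 8.45% of all 10928 genes at that level. They were COL5A1, COL11A1, COL4A1, COL4A2, COL16A1 and COL7A1. COL14A1 was the 1 chain at least 1.5-fold lower, 4.55% of the 22, against 14.2% of all genes. At 2-fold, 4 of the 22 were higher (18.2%) and 1 lower (4.55%), against 3.61% and 6.05% of all genes. The median log2 ratio was 0.33 over the 22 chains and -0.10 over all genes, and 17 of the 22 chains had a ratio above 1, against 38.9% of all genes. Scaling by TMM or by median-of-ratios size factors moved all ratios up by 0.15 or 0.19 on the log2 scale, the all-gene median to 0.06 or 0.09, and the count of higher chains to 10 in either case. With those scalings 11.8% or 13.0% of all genes were higher and 9.75% or 8.92% lower.

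**Figure D1:**
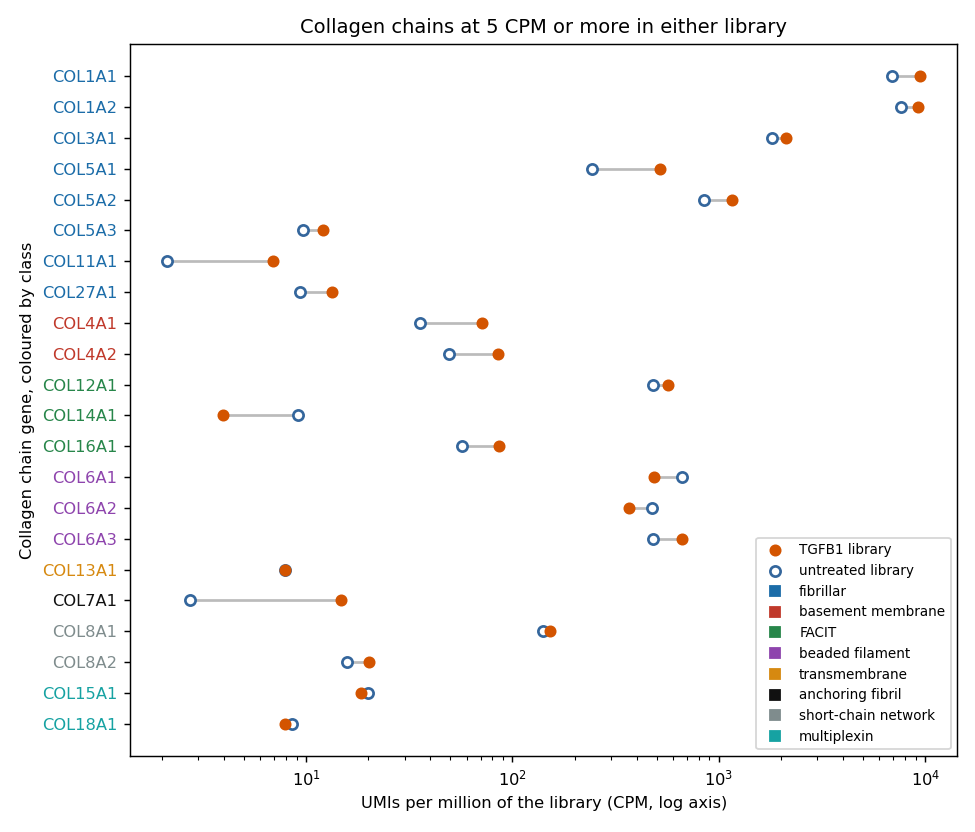
Level of the 22 measured collagen chains in each library, in CPM on a log10 axis, grouped by collagen class, with filled points for the TGFB1 library and open points for the untreated library. COL7A1 shows the widest gap, 14.7 CPM in the TGFB1 library and 2.75 CPM in the untreated library, while COL13A1 lies at 7.94 CPM with TGFB1 and 7.93 CPM untreated.

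**Figure D2:**
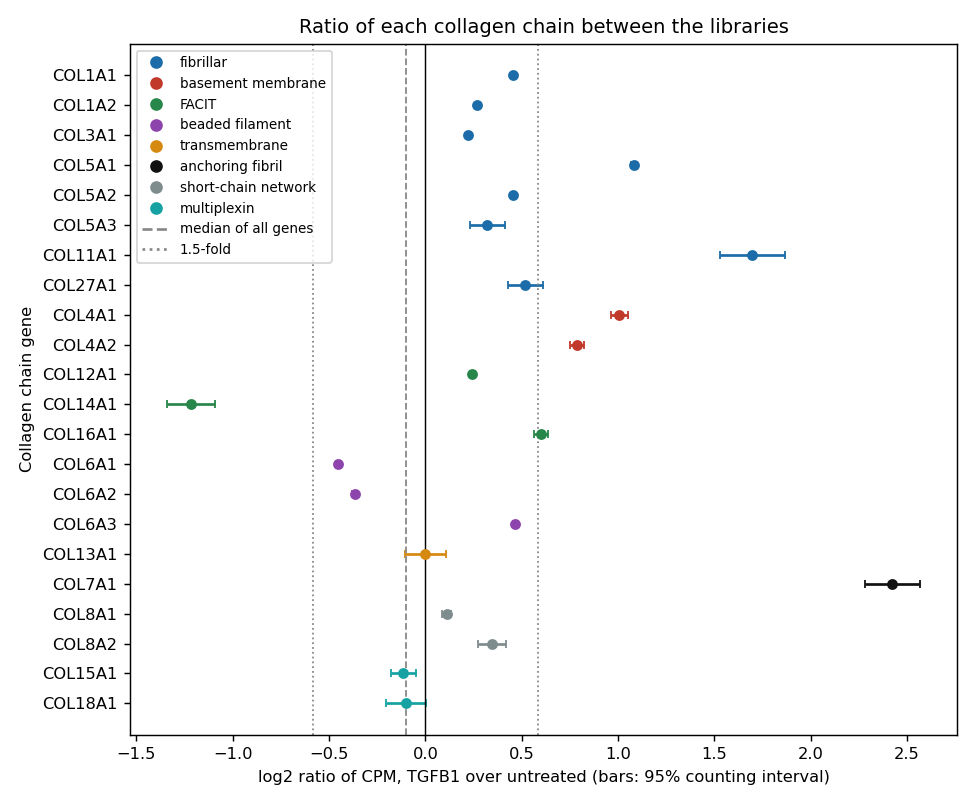
log2 ratio of each measured chain, TGFB1 over untreated, with bars for the 95% counting interval, a dashed line at the median of all genes (-0.10) and dotted lines at 1.5-fold. COL7A1, COL11A1, COL5A1, COL4A1, COL4A2 and COL16A1 lie right of the upper dotted line, and COL14A1 lies left of the lower one.

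Upstream sequences are shown for the 3 chains with the largest ratios, because the letters CAGAC hold the core that SMAD proteins are known to bind. The sequences are RefSeq's (GRCh38.p14), written 5′ to 3′ along each gene's strand and ending before the first exon annotated at that gene start, with CAGAC on either strand in capitals. A match on the opposite strand reads GTCTG. The COL7A1 stretch is chr3:48595330-48595579 on the minus strand. The COL11A1 stretch is chr1:103108523-103108772 on the minus strand, and 1 longer COL11A1 transcript in GENCODE 29 starts upstream of it. The COL5A1 stretch is chr9:134641553-134641773 on the plus strand.
COL7A1: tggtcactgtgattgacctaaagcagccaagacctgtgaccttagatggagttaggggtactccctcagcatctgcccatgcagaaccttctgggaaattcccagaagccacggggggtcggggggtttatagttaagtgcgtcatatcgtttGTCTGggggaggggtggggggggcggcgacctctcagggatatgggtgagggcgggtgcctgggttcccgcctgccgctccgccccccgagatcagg
COL11A1: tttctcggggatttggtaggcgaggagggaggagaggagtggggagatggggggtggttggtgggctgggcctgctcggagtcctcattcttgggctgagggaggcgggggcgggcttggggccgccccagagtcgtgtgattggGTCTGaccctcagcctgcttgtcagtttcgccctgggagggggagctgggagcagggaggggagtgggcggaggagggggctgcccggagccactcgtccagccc
COL5A1: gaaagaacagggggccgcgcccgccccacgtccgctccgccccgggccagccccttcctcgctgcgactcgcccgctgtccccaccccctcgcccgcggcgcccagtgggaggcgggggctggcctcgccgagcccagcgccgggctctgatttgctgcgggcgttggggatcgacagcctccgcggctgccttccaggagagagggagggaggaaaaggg
COL7A1 and COL11A1 each held 1 match and COL5A1 held 0. Over the 250 bases before the start, 16 of the 44 promoters that the RefSeq table lists for 32 of the chain genes held at least 1 match (36.4%), against 38.0% of 35114 promoters of all genes. A match to these letters is a description of the window, and its absence says nothing about SMAD binding.

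Fibrillar chains summed to 22406 CPM in the TGFB1 library and 17400 CPM in the untreated library, a ratio of 1.29. All 8 measured of the 11 fibrillar chains had a ratio above 1, and 2 of them passed 1.5-fold. COL5A1, the chain of collagen V that with COL5A2 nucleates and limits the width of collagen I fibrils, stood at 516 CPM in the TGFB1 library and 244 CPM in the untreated library (2.12-fold, 2.09 to 2.14). COL11A1, a chain of collagen XI with the same role in cartilage fibrils, stood at 6.90 CPM (1441 UMIs) in the TGFB1 library and 2.13 CPM (360 UMIs) in the untreated library (3.24-fold, 2.88 to 3.64). The other 6 measured fibrillar chains stayed under 1.5-fold.

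COL1A1, the main chain of collagen I, was at 9412 CPM in the TGFB1 library and 6862 CPM in the untreated library (1.37-fold). Its partner COL1A2 was at 9179 CPM with TGFB1 and 7622 CPM untreated (1.20-fold), and COL3A1, the chain of collagen III, at 2109 CPM with TGFB1 and 1806 CPM untreated (1.17-fold). COL5A2 was at 1156 CPM in the TGFB1 library and 843 CPM in the untreated library (1.37-fold). The remaining pair were the minor collagen V chain COL5A3, at 12.1 CPM with TGFB1 and 9.69 CPM untreated, and COL27A1, a fibrillar chain of cartilage, at 13.3 CPM with TGFB1 and 9.31 CPM untreated. COL24A1, a fibrillar chain known from developing bone, was below 5 CPM in both libraries, with 157 UMIs in the TGFB1 library and 414 UMIs in the untreated library, 3.26-fold lower (2.71 to 3.94).

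Both measured basement membrane chains were higher. COL4A1 stood at 71.5 CPM in the TGFB1 library and 35.6 CPM in the untreated library (2.01-fold, 1.95 to 2.07), and COL4A2, which joins COL4A1 in the common collagen IV trimer, at 85.5 CPM with TGFB1 and 49.5 CPM untreated (1.73-fold, 1.68 to 1.77). The genes lie head to head on chromosome 13, with RefSeq starts 126 bases apart, and their GENCODE 29 spans overlap on opposite strands, where counting without strand could not separate them. COL4A3 and COL4A4, another head-to-head pair, known from the kidney filter, have starts 418 bases apart on chromosome 2. COL4A3 had 179 UMIs in the TGFB1 library and 175 in the untreated library. COL4A4 had 659 UMIs with TGFB1 and 346 untreated (1.54-fold, 1.35 to 1.76), also below 5 CPM in both. COL4A5 had 25 UMIs with TGFB1 and 31 untreated, and COL4A6 had none in either library.

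The FACIT class held 1 chain past 1.5-fold in each direction. COL16A1, which binds fibrils and microfibrils, was at 86.0 CPM in the TGFB1 library and 56.7 CPM in the untreated library (1.52-fold, 1.48 to 1.55), close to the threshold, and went under it when cycling cells were left out or each cell was given equal weight. COL12A1, a long chain on collagen I fibrils, was at 568 CPM with TGFB1 and 480 CPM untreated (1.18-fold). COL14A1, a chain found on fibril surfaces, was at 3.94 CPM (824 UMIs) in the TGFB1 library and 9.15 CPM (1546 UMIs) in the untreated library, 2.32-fold lower (2.13 to 2.53). COL21A1, another FACIT chain, stayed below 5 CPM, with 66 UMIs in the TGFB1 library and 391 in the untreated library, 7.33-fold lower (5.63 to 9.66). COL9A2, a cartilage chain, had 25 UMIs with TGFB1 and 53 untreated.

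The 3 measured chains of collagen VI lay on both sides of a ratio of 1. COL6A1 stood at 484 CPM in the TGFB1 library and 662 CPM in the untreated library, a log2 ratio of -0.45, and COL6A2 at 369 CPM with TGFB1 and 475 CPM untreated, a log2 ratio of -0.37. COL6A3, the long chain that joins them in the collagen VI monomer, was at 662 CPM in the TGFB1 library and 479 CPM in the untreated library, a log2 ratio of 0.47. None of the 3 reached 1.5-fold, and the class sum had a ratio of 0.937 (0.932 to 0.942). The directions of the 3 chains were the same under each of the scalings, though with both of them COL6A3 passed 1.5-fold and the class sum was above 1.

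COL7A1, the chain of anchoring fibrils, had the largest ratio of the 22. It stood at 14.7 CPM (3075 UMIs) in the TGFB1 library and 2.75 CPM (464 UMIs) in the untreated library, 5.36-fold higher (4.86 to 5.92). A COL7A1 UMI was seen in 18.7% of TGFB1 cells (exact Clopper-Pearson interval 18.0% to 19.4%) and 5.44% of untreated cells (4.96% to 5.96%). Thinned to 7500 UMIs in the 9330 TGFB1 and 7646 untreated cells that deep, the shares were 9.50% of TGFB1 cells and 2.03% of untreated cells. For COL14A1 the thinned shares ran the other way, at 2.28% of TGFB1 cells and 5.28% of untreated cells, against 5.17% of TGFB1 cells and 11.5% of untreated cells before thinning. Free RNA can give such UMIs too, and no cell type known to lack collagens was identified in these cultures, so that background was not measured.

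The other measured chains stayed under 1.5-fold. COL8A1, a short-chain collagen of vessel walls and cornea, was at 152 CPM in the TGFB1 library and 141 CPM in the untreated library (1.08-fold), and its partner COL8A2 at 20.1 CPM with TGFB1 and 15.8 CPM untreated (1.27-fold). COL13A1, a transmembrane collagen of cell adhesions, was at 7.94 CPM with TGFB1 and 7.93 CPM untreated. The multiplexins COL15A1 and COL18A1, basement membrane collagens that carry heparan or chondroitin sulfate, lay just below a ratio of 1, and just above it with TMM or median-of-ratios scaling. COL15A1 had 3863 UMIs with TGFB1 and 3380 untreated (ratio 0.924, 0.882 to 0.968), and COL18A1 was at 7.94 CPM with TGFB1 and 8.51 CPM untreated. COL10A1, the short-chain collagen of growth cartilage, had 437 UMIs in the TGFB1 library and 235 in the untreated library (1.504-fold, 1.28 to 1.77). The transmembrane chains COL17A1 and COL25A1 had 53 and 62 UMIs with TGFB1 and 38 and 42 untreated. The collagen VI chain COL6A6 had 67 UMIs with TGFB1 and 66 untreated. The 13 chains with under 50 UMIs in each library, COL4A5 and COL4A6 included, had 0 to 81 UMIs over both libraries. Among them was COL2A1, the main cartilage collagen, with 1 UMI in all.

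Partner chains of 1 collagen type did not keep the same UMI ratio in both libraries. There were 0.975 COL1A2 UMIs per COL1A1 UMI in the TGFB1 library and 1.11 in the untreated library. COL5A2 per COL5A1 was 2.24 in the TGFB1 library and 3.46 in the untreated library, and COL4A2 per COL4A1 was 1.20 with TGFB1 and 1.39 untreated. COL6A3 per COL6A1 was 1.37 in the TGFB1 library and 0.724 in the untreated library, while COL6A2 per COL6A1 was closer, at 0.762 with TGFB1 and 0.718 untreated. In the clusters described, COL6A3 per COL6A1 ran between 0.837 and 2.22 in the TGFB1 library and between 0.475 and 1.05 in the untreated library, so the ranges overlapped. The cluster ranges of the other pairs overlapped too. COL4A2 per COL4A1 ran between 0.509 (cluster 10) and 2.41 with TGFB1 and between 1.23 and 1.80 untreated. COL5A2 per COL5A1 ran between 1.53 and 3.63 with TGFB1 and between 2.01 and 4.05 untreated.

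**Figure D3:**
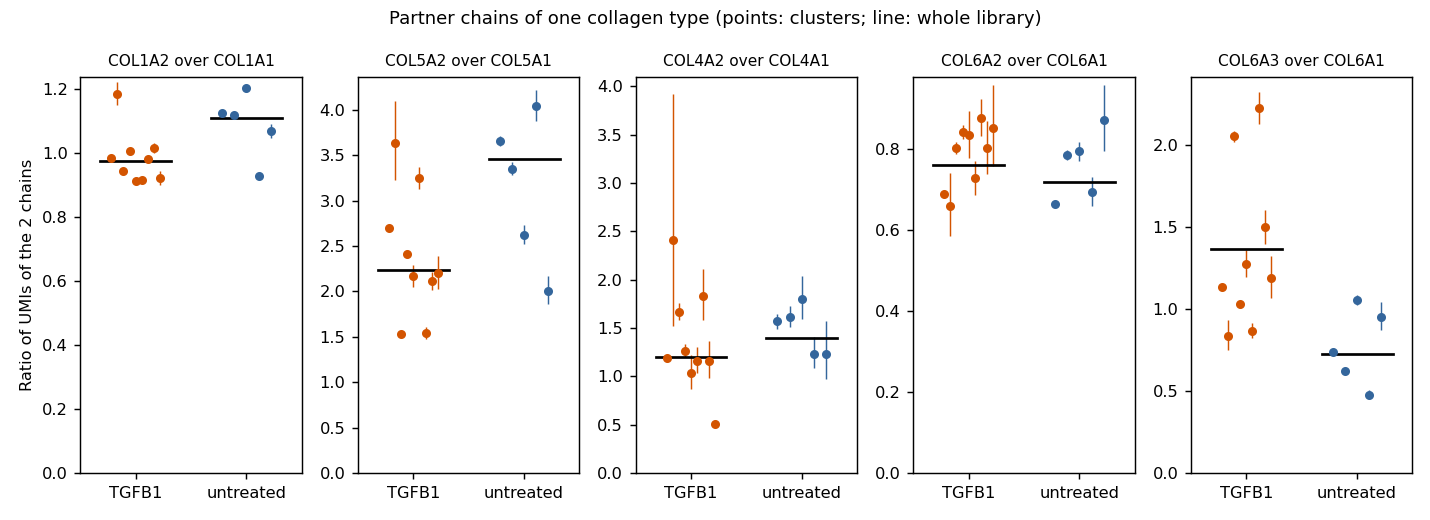
UMI ratio of partner chains in each described cluster (points) of the TGFB1 library and the untreated library, with bars for the 95% counting interval and a black line at the whole-library ratio, on a linear axis that starts at 0. The whole-library COL6A3 per COL6A1 ratio is 1.37 with TGFB1 and 0.724 untreated.

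Levels varied more between clusters for some chains than between libraries. Collagen took 3.60% of UMIs in cluster 7 of the TGFB1 library and 3.44% in cluster 7 of the untreated library. Among the described clusters, it took least in cluster 8 of the TGFB1 library (1.76%) and cluster 6 of the untreated library (1.18%). Of those described, these had the highest summed cycling markers, 731 CPM in the TGFB1 cluster and 1028 CPM in the untreated cluster. COL1A1 followed that order, at 13642 CPM in cluster 7 and 6547 CPM in cluster 8 of the TGFB1 library, and 13112 CPM in cluster 7 and 3811 CPM in cluster 6 of the untreated library. COL3A1 was also highest in cluster 7, at 4549 CPM in the TGFB1 library and 4295 CPM in the untreated library. The cycling markers as a list were lower in the TGFB1 library, summed to 41.0 CPM against 136 CPM in the untreated library, and their part in the library ratios was not tested beyond leaving those cells out.

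Cells in which MKI67 or TOP2A, markers of dividing cells, had a UMI numbered 993 in the TGFB1 library and 1411 in the untreated library. In the TGFB1 library their collagen level was 21944 CPM, against 25292 CPM in the other cells. In the untreated library it was 15560 CPM, against 20963 CPM in the other cells. Left out, these cells changed the all-collagen log2 ratio to 0.27, against 0.33 with all cells. COL6A3 was higher in the marked cells of both libraries, at 753 CPM against 652 CPM in the other cells of the TGFB1 library and at 499.9 CPM against 474 CPM in the untreated library. Its ratios were 1.15 with TGFB1 and 1.06 untreated. The untreated ratio was small, and no counting interval was calculated for either.

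COL11A1 was concentrated in cluster 9. That cluster held 1.46% of TGFB1 cells and 36.2% of the library's COL11A1 UMIs, and 1.33% of untreated cells and 41.7% of that library's COL11A1 UMIs. Its COL11A1 level was 162 CPM in the TGFB1 library and 76.2 CPM in the untreated library, against 14.4 CPM with TGFB1 and 9.20 CPM untreated in cluster 7, the next in order. Without cluster 9, COL11A1 dropped to 4.47 CPM in the TGFB1 library, below the level at which a chain was counted. The count of higher chains was then 5 of 21, against 8.48% of all genes. The COL11A1 fold was not smaller in the remaining cells, at 3.55-fold without cluster 9 and 4.90-fold without clusters 7, 9 and 10. With all cells it was 3.24-fold. COL15A1 was also highest in cluster 9, at 170 CPM in the TGFB1 library and 169 CPM in the untreated library.

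Among the described clusters, collagen IV was highest in cluster 10 of the TGFB1 library, 113 cells in all. COL4A1 was at 1415 CPM there, against 85.6 CPM in the cluster next in order, and COL4A2 at 721 CPM. COL18A1 was at 47.2 CPM and COL8A1 at 460 CPM in the same cells. The list of mural cell markers, genes of the cells that wrap small vessels, summed to 292 CPM in this cluster, against 48.4 to 123 CPM in the other TGFB1 clusters. MYH11, the smooth muscle myosin, gave 144 CPM of that sum, with NOTCH3 at 31.2 CPM and MCAM at 39.5 CPM also highest there among the TGFB1 clusters. ABCC9, at 38.8 CPM, was lower there than in clusters 0 and 1, and KCNJ8, at 13.7 CPM, was lower than in 6 other TGFB1 clusters. The chondrocyte list was also highest in cluster 10, at 109 CPM against 17.9 to 56.7 CPM in the other TGFB1 clusters, with the cartilage proteoglycan ACAN at 70.7 CPM. The cluster held 12.5% of the TGFB1 library's COL4A1 UMIs. Leaving out cluster 10 of both libraries gave COL4A1 a log2 ratio of 1.09, against 1.01 with all cells. Its level then fell from 71.5 to 63.0 CPM in the TGFB1 library and from 35.6 to 29.6 CPM in the untreated library. COL4A2 fell from 85.5 to 81.4 CPM with TGFB1 and from 49.5 to 46.3 CPM untreated. COL18A1 fell from 7.94 to 7.69 CPM with TGFB1 and from 8.51 to 8.25 CPM untreated. COL8A1 fell from 151.8 to 149.9 CPM with TGFB1 and from 140.6 to 139.9 CPM untreated. The untreated cells of cluster 10 thus also held these chains above their library's level, so the pattern was not limited to the TGFB1 library. Cluster 10 of the untreated library had 33 cells and was not described.

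**Figure D4:**
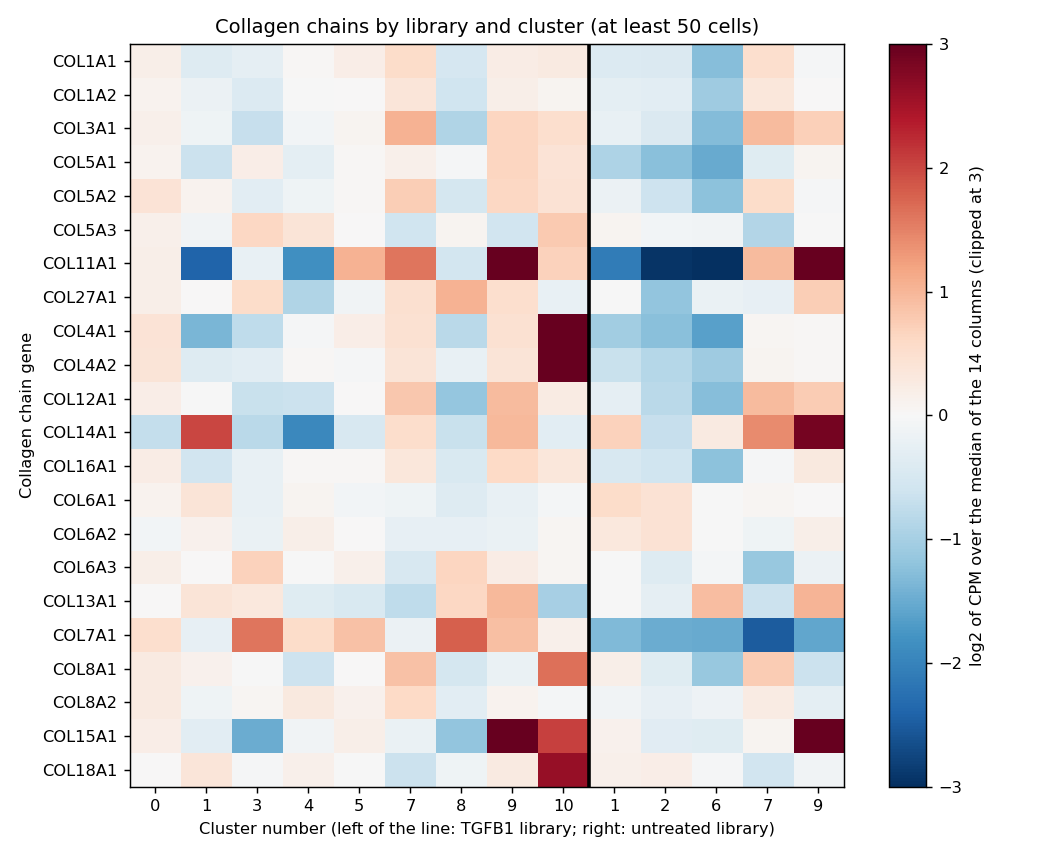
Level of each measured chain in each described cluster, as log2 of its CPM relative to the chain's median over the 14 columns, clipped at 3 in either direction, with TGFB1 clusters left of untreated clusters. COL11A1 and COL15A1 stand out in cluster 9 of both libraries, and COL4A1, COL4A2 and COL18A1 in cluster 10 of the TGFB1 library. Cluster 10 of the untreated library (33 cells) is not shown, though COL4A1, COL4A2 and COL18A1 were above that library's level there too.

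COL7A1 was the 1 chain of the 22 with every TGFB1 cluster above every untreated cluster, against 0.833% of all genes, and 0 chains had every TGFB1 cluster below every untreated cluster, against 0.961% of all genes. Its level ran between 6.27 CPM (cluster 1) and 26.0 CPM (cluster 8) in the TGFB1 library, and between 1.31 CPM (cluster 7) and 2.99 CPM (cluster 1) in the untreated library. The cluster 1 value of the TGFB1 library rests on 7 UMIs in 56 cells. COL14A1, by contrast, ran between 1.73 and 26.9 CPM in the TGFB1 clusters and between 4.09 and 48.8 CPM in the untreated clusters. Clusters 3 and 8 of the TGFB1 library, highest for COL7A1, were also highest for COL6A3, at 859 and 832 CPM.

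Clusters 1, 7 and 9 held at least 50 cells of both libraries, so the libraries could be set side by side within them. They held 0.446%, 2.41% and 1.46% of TGFB1 cells and 45.5%, 3.38% and 1.33% of untreated cells. Clusters were made from these genes too and group like cells, so a smaller ratio within a cluster is a description and no test. In cluster 7 (303 TGFB1 and 274 untreated cells), 5 of 22 measured chains passed 1.5-fold upward and 1 downward, against 5.03% and 4.95% of all genes. They were COL7A1 (5.01-fold, 43 UMIs with TGFB1 and 9 untreated), COL4A4 (3.67-fold, 35 UMIs with TGFB1 and 10 untreated), COL27A1 (1.64-fold), COL6A3 (1.59-fold) and COL11A1 (1.56-fold), with COL14A1 lower. In cluster 9 (183 TGFB1 and 108 untreated cells), 3 of 25 were higher, COL7A1 (5.49-fold), COL11A1 (2.12-fold) and COL5A2 (1.56-fold), and 4 were lower, COL24A1, COL4A5, COL14A1 and COL10A1, against 9.69% and 17.8% of all genes. The lower chains other than COL14A1 had at most 9 UMIs each with TGFB1. In cluster 1 (56 TGFB1 and 3687 untreated cells), 3 of 23 were higher, COL14A1, COL7A1 and COL4A4, and 0 lower, against 6.42% and 6.87%. COL7A1 and COL4A4 rest on 7 and 6 UMIs in the TGFB1 cells there. COL1A1 differed less within clusters than between whole libraries, with ratios of 1.04 in cluster 7, 1.19 in cluster 9 and 1.03 in cluster 1. COL5A1, COL4A1, COL4A2 and COL16A1, past 1.5-fold between whole libraries, stayed under it in each of the 3 clusters. COL5A1 was at 1.43-fold in cluster 7, 1.48-fold in cluster 9 and 1.22-fold in cluster 1, and COL4A1 at 1.32-fold, 1.34-fold and 0.795-fold in those clusters.

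**Figure D5:**
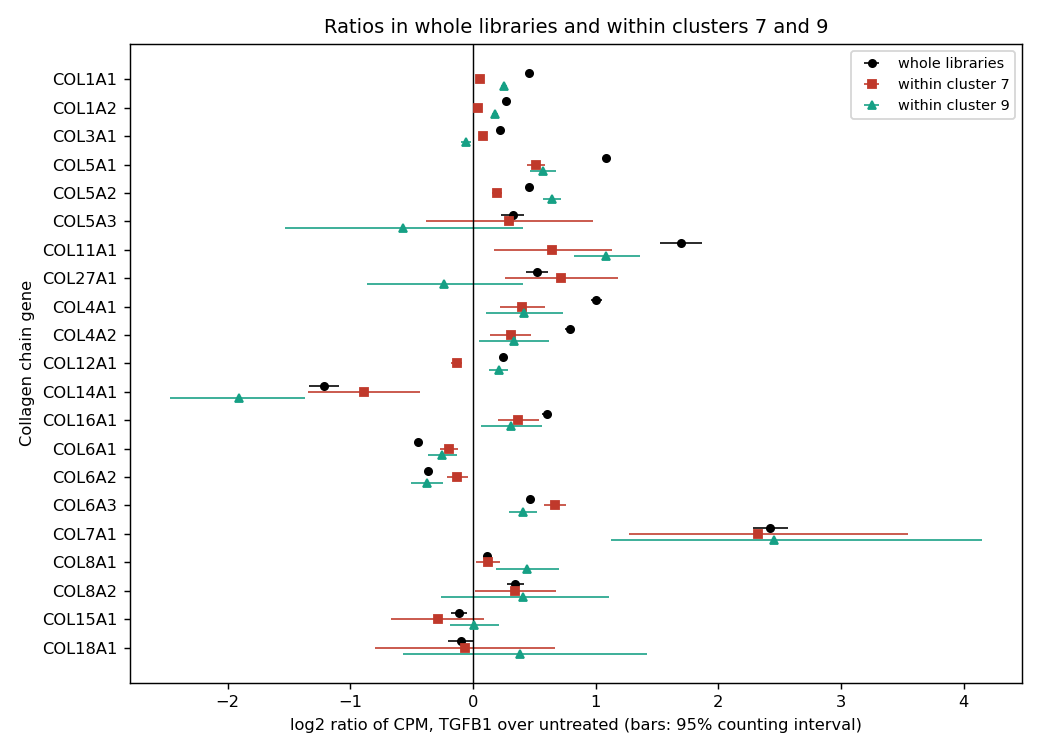
log2 ratio of each chain, TGFB1 over untreated, between whole libraries (circles), within cluster 7 (squares) and within cluster 9 (triangles), with bars for the 95% counting interval, for the 21 chains measured in both clusters. COL7A1 lies above 2 and COL14A1 below 0 in all 3, and COL1A1 and COL5A1 lie nearer to 0 within the clusters than between whole libraries. The clusters were made from these genes too, so this is a description.

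Genes that make, move and bind collagen were counted by list, to be read against the 8.45% of all genes that were higher, the 14.2% that were lower and the all-gene median log2 ratio of -0.10. Of 17 enzymes and chaperones of hydroxylation and folding, 4 passed 1.5-fold upward and 1 downward, and the median log2 ratio was 0.08. P4HA3, a prolyl hydroxylase subunit, was at 65.3 CPM in the TGFB1 library and 14.9 CPM in the untreated library (4.39-fold). PLOD2, which hydroxylates telopeptide lysines, was at 294 CPM with TGFB1 and 104 CPM untreated (2.82-fold), and P4HA2 at 254 CPM with TGFB1 and 154 CPM untreated (1.65-fold). COLGALT2, a collagen galactosyltransferase, was the lower one, at 3.56 CPM in the TGFB1 library and 8.15 CPM in the untreated library.

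Of 11 measured export and propeptide-processing genes, 2 were higher and 0 lower, against 8.45% and 14.2% of all genes (median log2 ratio 0.16). These were the COPII coat genes SEC23A, at 177 CPM in the TGFB1 library and 106 CPM in the untreated library, and SEC24D, at 218 CPM with TGFB1 and 142 CPM untreated. PCOLCE, an enhancer of procollagen cleavage, was at 181 CPM with TGFB1 and 262 CPM untreated, and PCOLCE2 at 30.1 CPM with TGFB1 and 38.6 CPM untreated, both lower by under 1.5-fold. Of 6 cross-linking genes, 2 were higher, LOXL3 at 15.4 CPM with TGFB1 and 9.29 CPM untreated and TGM2 at 205 CPM with TGFB1 and 132 CPM untreated, and 0 lower, against the same 8.45% and 14.2%. LOX, the lysyl oxidase, stood at 1638 CPM in the TGFB1 library and 1460 CPM in the untreated library, and LOXL1 at 65.2 CPM with TGFB1 and 77.6 CPM untreated.

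Of 8 measured collagen receptors, 4 passed 1.5-fold upward and 0 downward, against 8.45% and 14.2% of all genes, and the median log2 ratio was 0.59, against -0.10. The integrin chain ITGA1 was at 67.3 CPM in the TGFB1 library and 26.7 CPM in the untreated library (2.52-fold), ITGA2 at 127 CPM with TGFB1 and 73.9 CPM untreated (1.71-fold), and ITGA11 at 343 CPM with TGFB1 and 226 CPM untreated (1.52-fold). MRC2, which takes up collagen fragments, was at 262 CPM with TGFB1 and 156 CPM untreated (1.69-fold). Of 4 measured collagen-cleaving proteases, 0 passed upward and 2 downward, against 8.45% and 14.2% of all genes, and the median log2 ratio was -0.50, against -0.10. CTSK, a lysosomal cysteine protease, was at 84.3 CPM in the TGFB1 library and 147 CPM in the untreated library, and the collagenase MMP1 at 14.2 CPM with TGFB1 and 23.4 CPM untreated. MMP14 was at 62.0 CPM with TGFB1 and 75.04 CPM untreated, and MMP2 at 619 CPM with TGFB1 and 563 CPM untreated.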

How the data were processed

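Whole-number UMI counts per gene and cell were deposited in a matrix that pools both libraries, with the authors' library and cluster of each cell and the percent of mitochondrial UMIs per cell. Cell Ranger 9.0.1, Seurat and GRCh38 are named, without roles, in the submitters' processing notes. The authors' deposited cells had at least 502 genes and at most 4.998% mitochondrial UMIs. Which end of the transcript the kit captured, whether strand was used and whether doublets were removed are not given in the sources used here, and no doublet caller was run.

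UMIs were summed over the cells of a library, or of a library and cluster with at least 50 cells, and divided by the sum of all genes to give CPM. Chains that reached 5 CPM in either library are called measured and were named with their values, and chains below it were named where they held at least 50 UMIs in a library. Of each pathway list, the 4 measured members with the largest absolute log2 ratio were named with their values. Past the threshold means at least 1.5-fold. The members, classes and lists were chosen with earlier results of these data known. Intervals on ratios are exact conditional binomial, on shares exact Clopper-Pearson, both 95%. A count of 0 allows up to 3 UMIs, 0.0144 CPM in the TGFB1 library and 0.0178 CPM in the untreated library. For shares of cells with a UMI, each cell was thinned to 7500 UMIs and shallower cells were left out. TMM factors came from edgeR 4.0.16 in R 4.3.3, and the rest from Python 3.11.15 with numpy 2.4.6, scipy 1.17.1 and pandas 2.3.3. The calculation was tested on simulated data. Alternatives were other scalings, filters, folds and sets of cells. The sets of cells that leave out cluster 9, cluster 10 or the TGFB1 cells of clusters 1, 2 and 6 were chosen after seeing the data.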

Additional observations from a re-analysis of the deposited data

Results flagged for a closer look

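COL14A1 was higher in the TGFB1 library within cluster 1, with a log2 ratio of 1.33, and lower within clusters 7 and 9, with log2 ratios of -0.885 and -1.91. It had 30 UMIs in 56 TGFB1 cells and 905 UMIs in 3687 untreated cells of cluster 1, which gives 26.9 CPM with TGFB1 and 10.7 CPM untreated. In cluster 7 it stood at 9.65 CPM with TGFB1 and 17.8 CPM untreated, and in cluster 9 at 13.0 CPM with TGFB1 and 48.8 CPM untreated. Its directions in these clusters were opposite, and the difference between clusters was not tested, since each cluster has 1 library per group.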

How the results depend on the processing

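No paired analysis was possible because each group has 1 library. With all cells and library totals, 6 chains were higher and 1 lower, the median log2 ratio of the chains was 0.33, and the log2 ratios of the summed levels were 0.36 for fibrillar, 0.87 for basement membrane, 0.26 for FACIT, -0.09 for beaded filament, 0.01 for transmembrane and 0.33 for all collagen chains. TMM scaling gave 10 higher chains, a median of 0.49 and sums of 0.52, 1.02, 0.42, 0.061, 0.17 and 0.49 in that order of classes. Median-of-ratios scaling gave 10, 0.53, and 0.56, 1.06, 0.45, 0.10, 0.20 and 0.52. Both added COL1A1, COL5A2, COL27A1 and COL6A3 to the higher chains, and both turned the beaded filament sum above 0.

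Equal weight per cell gave a median of 0.37 and sums of 0.41 (fibrillar), 0.98 (basement membrane), 0.39 (FACIT), -0.13 (beaded filament) and 0.37 (all). Thinned cells gave a median of 0.35 and sums of 0.385 (fibrillar), 0.95, 0.32, -0.12 and 0.35 for the same classes. Without clusters 7, 9 and 10 the median was 0.34 and the sums 0.39, 0.96, 0.31, -0.10 and 0.36. Without cells with an MKI67 or TOP2A UMI the median was 0.34 and the sums 0.30, 0.82, 0.20, -0.12 and 0.27. Leaving out cluster 5 gave a median of 0.34 and a fibrillar sum of 0.36. Leaving out cluster 10 gave 0.34 and a basement membrane sum of 0.91. Leaving out the TGFB1 cells of clusters 1, 2 and 6 gave 0.34, a fibrillar sum of 0.37 and an all-collagen sum of 0.33. The last pair of settings, and leaving out cluster 9, were chosen after seeing the data. The cause of these differences was not tested.

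At 20 CPM or more, 4 of 14 chains were higher and 0 lower (9.55% and 11.4% of all genes), with a median of 0.40. The counts were smaller because COL7A1, COL11A1 and COL14A1 lie under that level. At 1 CPM or more, 8 of 27 were higher and 3 lower (8.82% and 18.5% of all genes), and the median was 0.32. Over the 40 chains with a UMI in both libraries, 10 were higher and 6 lower (13.8% and 26.6% of all genes), and the median was 0.20. Class medians in place of sums were 0.46 (fibrillar), 0.90 (basement membrane), 0.24 (FACIT) and -0.37 (beaded filament). At 2-fold, 4 chains were higher and 1 lower, and no measured chain past 1.5-fold changed direction in any of these settings. With 1 library per group, spread between cultures is unknown, and chains of under 50 UMIs are limited by counting error.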

Other observations

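Genes that carry a collagen name but are not chain genes had few UMIs. COL5A1-AS1, an antisense gene of COL5A1, had 154 UMIs in the TGFB1 library and 40 UMIs in the untreated library, and COL4A2-AS2 had 17 with TGFB1 and 3 untreated. If strand was not used in counting, such UMIs cannot be told apart from those of the chain on the other strand. COL6A2-DT had 12 UMIs with TGFB1 and 15 untreated, and COL6A4P1, a pseudogene, had 3 with TGFB1 and 2 untreated.

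COL13A1, COL27A1, COL7A1 and COL14A1 joined COL6A3 in being higher, in both libraries, in cells with an MKI67 or TOP2A UMI, while collagen as a whole was lower there. COL13A1 stood at 10.7 CPM in the marked cells of the TGFB1 library, against 7.64 CPM in its other cells, and at 10.8 CPM against 7.20 CPM in the untreated library. COL27A1 stood at 18.5 CPM against 12.8 CPM in the TGFB1 library and at 10.4 CPM against 9.03 CPM in the untreated library. COL14A1 stood at 4.40 CPM against 3.89 CPM in the TGFB1 library and at 9.86 CPM against 8.96 CPM in the untreated library. Those COL14A1 ratios, 1.13 and 1.10, and that of COL7A1 in the untreated library, 1.13, were small. No counting interval was calculated for them, so they may not differ from a ratio of 1. Marked cells are those in which a UMI of either gene was found, so deeper cells are more often among them.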
